A study of Mus musculus with 6 samples.

Results

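A set of 10 genes of the Hippo pathway and its output was examined in cultured mouse fat cells that received miR-182-5p or a control: the kinases Lats1 and Lats2, the coactivators Yap1 and Wwtr1 (TAZ), the DNA-binding partner Tead1, the angiomotin-like scaffolds Amotl1 and Amotl2, and the target genes Cyr61, Ctgf and Ankrd1. They were chosen by symbol, with earlier results of these data known, and all 10 were found among the 22609 gene symbols of each sample. With miR-182-5p, 7 of the 10 were significantly higher, 1 (Amotl2) was lower, and Lats2 and Amotl1 did not pass the test. Of all genes tested, 46.7% passed it, 23.2% higher and 23.5% lower. Among 4185 more highly expressed genes, a level that 9 of the 10 reached, 37.4% were higher and 27.6% lower. The increases were modest, from 1.12-fold for Wwtr1 to 1.45-fold for Ankrd1, and no gene reached the 1.5-fold cutoff that the study used.

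The Hippo pathway is a kinase cascade in which MST kinases activate LATS kinases, and LATS phosphorylation keeps YAP and TAZ in the cytoplasm or marks them for degradation. When the cascade is quiet, YAP and TAZ enter the nucleus and, bound to TEAD factors, switch on genes such as Ctgf, Cyr61 and Ankrd1. In fat precursor cells TAZ is known to restrain PPARγ, the master regulator of adipocyte differentiation, and cell spreading and matrix stiffness keep YAP and TAZ nuclear. RNA levels report the amounts of these transcripts and not the phosphorylation or location of the proteins.

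The cells were primary cultures from the stromal vascular fraction (SVF) of the inguinal white fat (iWAT) of C57BL6 male mice, labelled as 3 weeks old, which had been isolated and differentiated into adipocytes. Both groups were transfected, 3 samples with a control and 3 with miR-182, and the effect of the overexpression was the question of the experiment. The labels describe a control vector and electroporation, whereas the study's methods describe a mimic delivered with a lipid reagent and give the mice another age, so the form of the miRNA is not settled here. Below, the groups are called mimic control and miR-182-5p mimic. Nothing in the labels says whether the replicates came from separate mice or cultures, so the p-values measure only the spread between these samples, which may be technical. Reads counted on genes ranged from 25869810 to 28796712 per sample. The entry for the gene of the miRNA, Mir182, is listed at 0 reads in all 6 samples. Which transcript this entry covers is not given in the sources used here. Mature miRNAs are not captured by these poly(A)-selected libraries, so the overexpression itself could not be checked here.

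The adipocyte label was met by Fabp4, the fatty acid binding protein of adipocytes, which had 3316 CPM (reads per 1000000 reads on genes, with library sizes scaled by the trimmed mean of M-values, TMM) in the control and 2067 CPM with the mimic. Col1a1, a collagen gene of fibroblasts and fat progenitors, was higher still at 19248 CPM in the control. In bulk RNA of this kind, fewer cells of a type and less RNA per cell cannot be told apart. The summed level of 8 adipocyte markers was 12490 to 13270 CPM in the control samples and 8753 to 9845 CPM in the mimic samples. Over 8 progenitor markers, the sum was 20310 to 21430 CPM and 19400 to 20250 CPM, most of it Col1a1. Over 6 markers of mural cells, the contractile cells of vessel walls, it was 3052 to 3204 CPM and 3640 to 3860 CPM, most of it Acta2, which is no marker of these cells alone. These shifts moved with the changes described below, and their part in them was not tested.

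The miRNA and the regulatory sequences of the pathway genes are shown first. The mature strand of mouse miR-182-5p, from RefSeq on GRCm38.p6, is encoded at chr6:30165962-30165986 on the minus strand. It is printed because its seed, bases 2 to 8 in capitals, sets which transcripts hold a match, although the study's methods print another sequence under the name of this miRNA.
miR-182-5p: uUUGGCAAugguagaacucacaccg
The 7-base match to this seed, TTGCCAA, was searched in the longest protein-coding 3′ UTR of each gene (GENCODE M21, GRCm38). Of the 10 genes, 1 held it, Lats2, at base 820 of a 3′ UTR of 1626 bases, at chr14:57690462-57690468 on the minus strand. The site is shown with its flanks, the seed match in capitals, since it is the only one among these genes, and an adenine follows it.
Lats2 3′ UTR site: ttaagtcagctTTGCCAAaacattgacat
Among all tested genes with a 3′ UTR, 1568 of 12514 (12.5%) held the match. A match is a description of the sequence and not evidence of binding.

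TEAD factors recognise the 6-base core GGAATG, read CATTCC on the other strand, and both were searched in RefSeq promoter windows of 300 bases, from 250 before to 50 after the start of transcription (GRCm38.p6). Of 32851 windows of this length, 4817 (14.7%) held at least 1 match and 447 (1.36%) held at least 2. Windows were at hand for 8 of the 10 genes, excluding Tead1 and Ctgf. Counted by window, as the 14.7% is, 7 of their 10 windows held a match. By gene, a match was present for 6 of the 8, namely Yap1, Wwtr1, Lats2, Cyr61, Ankrd1 and Amotl2. Such a match describes the sequence and is not evidence of TEAD binding. The 4 windows below were chosen to show the coactivator Yap1 and 3 genes known as YAP and TAZ targets, each written 5′ to 3′ on the strand of the gene with the matches in capitals.
Yap1 promoter: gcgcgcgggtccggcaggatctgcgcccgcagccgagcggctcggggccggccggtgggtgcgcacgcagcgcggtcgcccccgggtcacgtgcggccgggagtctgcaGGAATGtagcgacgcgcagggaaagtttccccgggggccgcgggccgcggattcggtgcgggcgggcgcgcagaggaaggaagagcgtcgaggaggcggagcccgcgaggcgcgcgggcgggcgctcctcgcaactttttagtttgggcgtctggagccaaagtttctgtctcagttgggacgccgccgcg
Cyr61 promoter: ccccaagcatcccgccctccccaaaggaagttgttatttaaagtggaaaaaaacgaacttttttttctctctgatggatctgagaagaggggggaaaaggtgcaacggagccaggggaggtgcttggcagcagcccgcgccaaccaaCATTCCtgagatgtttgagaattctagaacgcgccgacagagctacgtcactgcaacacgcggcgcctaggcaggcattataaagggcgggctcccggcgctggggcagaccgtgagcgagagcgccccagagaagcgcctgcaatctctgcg
Ankrd1 promoter: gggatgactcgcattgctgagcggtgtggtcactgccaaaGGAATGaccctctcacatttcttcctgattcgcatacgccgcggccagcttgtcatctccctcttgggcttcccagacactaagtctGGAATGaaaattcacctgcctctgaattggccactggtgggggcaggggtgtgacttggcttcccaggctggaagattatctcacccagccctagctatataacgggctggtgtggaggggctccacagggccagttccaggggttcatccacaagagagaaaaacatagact
Amotl2 promoter: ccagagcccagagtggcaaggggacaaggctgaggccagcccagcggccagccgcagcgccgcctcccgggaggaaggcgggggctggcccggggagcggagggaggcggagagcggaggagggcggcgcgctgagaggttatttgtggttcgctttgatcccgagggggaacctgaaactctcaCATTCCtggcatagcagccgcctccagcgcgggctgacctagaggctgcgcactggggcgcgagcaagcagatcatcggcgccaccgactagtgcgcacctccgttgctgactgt
The Yap1 window lies at chr9:8004547-8004846 (minus strand) and its match begins at position -141, counted from the start of transcription. The Cyr61 window, at chr3:145649936-145650235 (minus strand), has its match at -103, on the opposite strand. The Ankrd1 window, at chr19:36119795-36120094 (minus strand), holds 2 matches, at -210 and -123. The Amotl2 window, at chr9:102717554-102717853 (plus strand), has its match at -65, again on the opposite strand. For Wwtr1, the 2 windows listed overlap and hold the same single match, and for Lats2, 1 of 2 windows did, just downstream of the start. Neither Lats1 nor Amotl1 held one in its window.

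**Figure D1:**
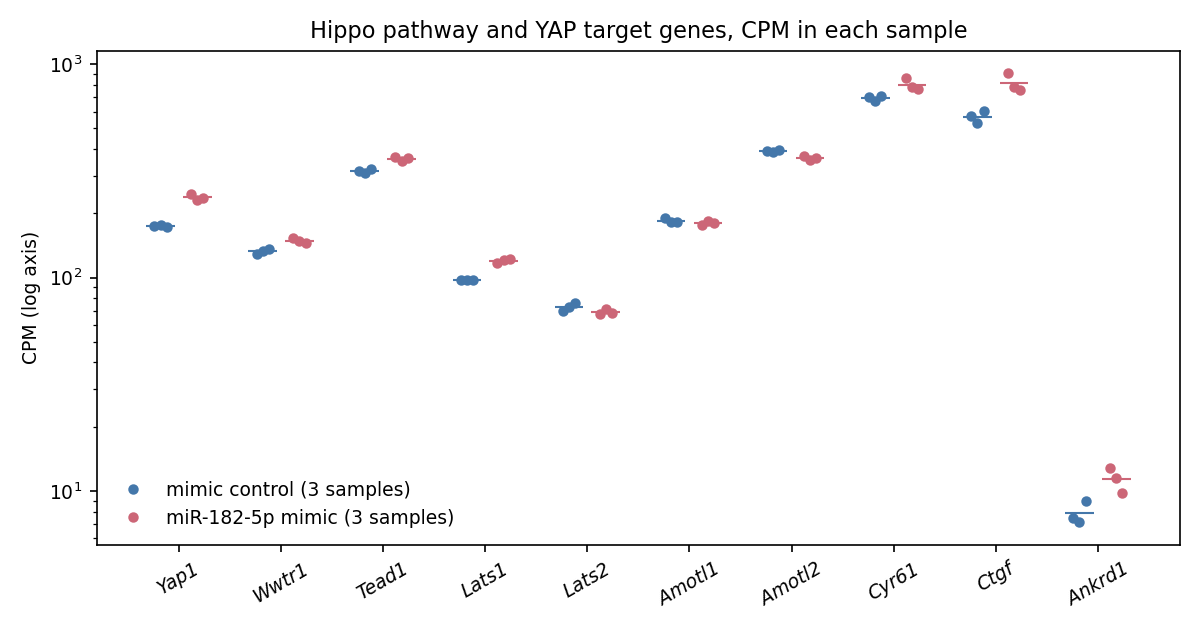
CPM (log axis) of the 10 genes in each of the 3 mimic control samples (blue) and the 3 miR-182-5p mimic samples (red), with a line at each group mean. All 3 mimic samples lie above all 3 control samples for 7 genes and below them for Amotl2, while the groups overlap for Lats2 and Amotl1. Over all genes tested, the mimic samples lie above in 27.3%, below in 27.5%, and overlap in 45.2%.

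Counts were compared by the quasi-likelihood test of edgeR, with p-values adjusted by the Benjamini-Hochberg method over all 13117 genes tested, and every adjusted p below comes from it. This contrast moved a large part of the transcriptome. At an adjusted p of 0.05, 3037 genes were higher and 3087 lower with the mimic, and against the 23.2% and 23.5% that these make up, 7 of the 10 genes rose and 1 fell. Since 9 of the 10 had a mean of at least 50 CPM, the share among the 4185 genes at that level is also given, and there 37.4% were higher and 27.6% lower. At 1.5-fold and adjusted p together, 7.45% of all genes passed (1.97% higher and 5.48% lower), against 0 of the 10. DESeq2 and limma-voom also placed 0 of the 10 past both cutoffs. The median log2 fold change was 0.20 over the 10 genes and -0.0043 over all genes tested.

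The LATS kinases sit at the end of the cascade and phosphorylate YAP and TAZ directly. Lats1 (chr10:7681214-7716460, plus strand, coordinates here and below from GENCODE M21 on GRCm38) had 97.0, 97.9 and 97.0 CPM in control replicates 1 to 3 and 117, 121 and 122 CPM in mimic replicates 1 to 3. All mimic samples were above all control samples, and the control values lay within 1 CPM of one another. Lats1 rose by 0.30 on the log2 scale (SE 0.030, adjusted p = 1.8e-06, n = 3 per group), which is 1.23-fold. Lats2 (chr14:57689662-57758388, minus strand), the gene with the seed match, had 69.9, 72.4 and 75.6 CPM in the control and 67.6, 71.4 and 68.3 CPM with the mimic. Here the groups overlapped, with 2 mimic samples below every control sample and mimic replicate 2 among the controls. The Lats2 difference was -0.07 on the log2 scale (SE 0.039, adjusted p = 0.149). Of the exon bases of Lats2, 2955 of 6971 are shared with Gm49361 on the same strand, so its count is uncertain, and whether the authors' annotation held that gene is not given in the sources used here.

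The coactivators YAP and TAZ carry the signal into the nucleus. Yap1 (chr9:7931999-8004596, minus strand) had 175, 177 and 172 CPM in the control and 247, 231 and 237 CPM with the mimic. The lowest mimic sample was far above the highest control sample. By p-value, Yap1 had the strongest evidence of the 10, ranking 265 of all genes tested, with a log2 fold change of 0.45 (SE 0.030, 1.36-fold, adjusted p = 3.9e-08). Of its 9257 exon bases, 116 overlap the antisense gene Gm20416, and whether counting used the strand is not given in the sources used here. Wwtr1, which encodes TAZ (chr3:57455649-57575910, minus strand), had 129, 133 and 136 CPM in the control and 153, 148 and 145 CPM with the mimic. The groups were separate but close, the highest control and the lowest mimic sample both being replicate 3. The Wwtr1 change was smaller, 0.16 on the log2 scale (SE 0.032, adjusted p = 0.000725).

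Tead1 encodes a transcription factor through which YAP and TAZ reach DNA. Tead1 (chr7:112679318-112906807, plus strand) had 316, 310 and 322 CPM in the control and 367, 352 and 362 CPM with the mimic. Every mimic sample exceeded every control sample. Tead1 rose by 0.19 on the log2 scale (SE 0.028, 1.14-fold, adjusted p = 7.9e-05). Its relatives Tead2, Tead3 and Tead4 did not pass the test, with log2 differences of -0.06, 0.08 and 0.36, Tead4 being near the limit of detection at 0.774 CPM in the control.

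The angiomotin-like proteins hold YAP and TAZ at cell junctions and in the cytoplasm, and Amotl2 is itself a known YAP target. Amotl1 (chr9:14541966-14645056, minus strand) had 189, 181 and 183 CPM in the control and 177, 184 and 181 CPM with the mimic. The groups overlapped, and the log2 difference was -0.03 (SE 0.029, adjusted p = 0.402). Amotl2 (chr9:102716672-102733418, plus strand) had 392, 386 and 396 CPM in the control and 372, 354 and 363 CPM with the mimic. All mimic samples lay below all control samples, so Amotl2 went the other way from Cyr61, Ctgf and Ankrd1. It fell by 0.11 on the log2 scale (SE 0.028, adjusted p = 0.00614). This call depended on 1 sample, since without mimic replicate 2 the log2 difference was -0.09 and the adjusted p was 0.0553. The related gene Amot was at 30.8 CPM in both groups.

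Ctgf and Cyr61 encode secreted matricellular proteins of the CCN family and are the standard readouts of YAP and TAZ activity. Ctgf (Ccn2, chr10:24595442-24598683, plus strand) had 569, 528 and 607 CPM in the control and 907, 782 and 753 CPM with the mimic. The mimic samples were all higher, with replicate 1 well above the other two. Ctgf rose by 0.52 on the log2 scale (SE 0.061, 1.43-fold, adjusted p = 8.5e-06). Of its 2861 exon bases, 665 overlap the antisense gene Gm15270. Cyr61 (Ccn1, chr3:145646976-145649981, minus strand) had 705, 674 and 706 CPM in the control and 866, 779 and 762 CPM with the mimic. Again no mimic sample fell into the control range, and replicate 1 was the highest. The change of Cyr61 was 0.21 on the log2 scale (SE 0.042, 1.15-fold, adjusted p = 0.00109).

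Ankrd1, an ankyrin-repeat protein of striated muscle that YAP also induces in other cells, was expressed at a far lower level. Ankrd1 (chr19:36111961-36120099, minus strand) had 190, 186 and 234 reads in the control and 375, 302 and 277 reads with the mimic. In CPM these were 7.46, 7.12 and 8.97 against 12.8, 11.5 and 9.81. The groups did not overlap, but control replicate 3 and mimic replicate 3 were within 1 CPM of each other. Its log2 fold change of 0.54 had the widest error of the 10 (SE 0.11, 1.45-fold, adjusted p = 0.00114). Without control replicate 3 it was 0.64 and without mimic replicate 3 it was 0.64, both past 1.5-fold. The 3 target genes shared 1 order of the samples: control replicate 2 was the lowest control for each, and mimic replicates 1, 2 and 3 were the highest, middle and lowest mimic samples. This order of the mimic samples was not particular to them, since Wwtr1 and Acta1 also had it. Across genes, mimic replicate 1 differed more from replicates 2 and 3 (chi-square per degree of freedom 4.82 and 6.9) than those did from each other (2.08). With mimic replicate 1 left out, the log2 fold changes of the 3 target genes were 0.44 for Ctgf, 0.15 for Cyr61 and 0.44 for Ankrd1. All 3 remained past the adjusted p.

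**Figure D2:**
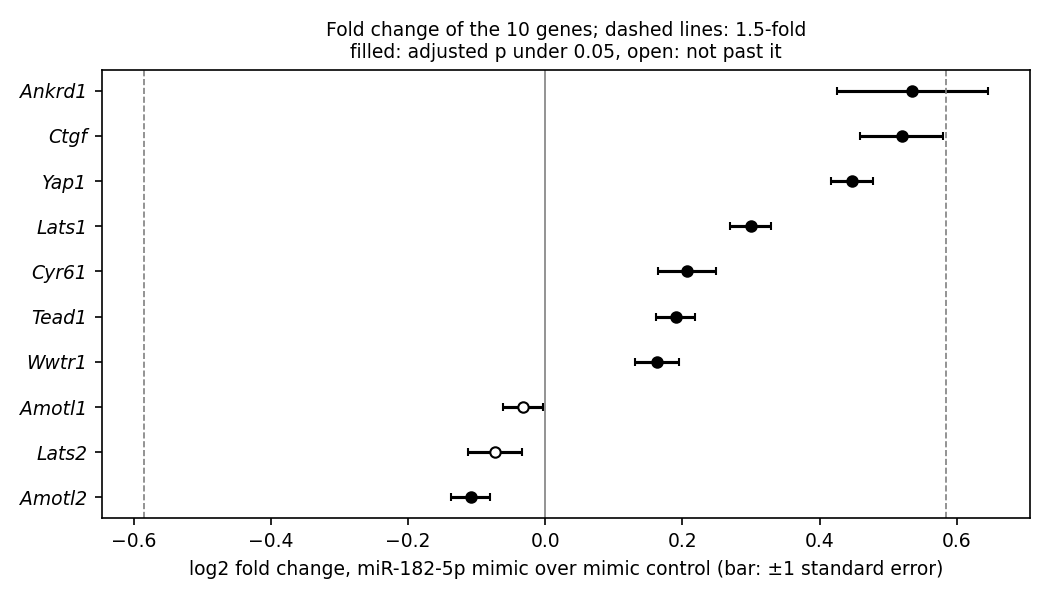
Log2 fold change of each of the 10 genes, miR-182-5p mimic over mimic control, with bars of 1 standard error from the edgeR fit (3 samples per group). Filled points passed an adjusted p of 0.05, open points did not, and dashed lines mark 1.5-fold, which no point crosses. Ankrd1, Ctgf and Yap1 lie highest, at 0.54, 0.52 and 0.45, and Amotl2 lowest, at -0.11.

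A set of 4 pairs of relatives was compared by the log2 ratio of their CPM within each sample. Yap1 over Wwtr1 was 0.40 ± 0.052 (SD, n = 3) in the control and 0.68 ± 0.032 with the mimic. Lats1 over Lats2 went from 0.42 ± 0.058 to 0.79 ± 0.039. Ctgf over Cyr61 went from -0.29 ± 0.068 to 0.02 ± 0.044. For these 3 pairs every mimic sample was above every control sample, each with a two-sided exact permutation p of 0.1, the smallest that 3 against 3 samples allow, and an adjusted value of 0.133 over the 4 pairs. No pair passed 0.05, which this test cannot reach with 3 against 3 samples. Amotl1 over Amotl2 was -1.08 ± 0.031 and -1.01 ± 0.063, with overlapping samples (exact permutation p = 0.2). In the mimic samples the reads of Ctgf and Cyr61 were thus close in number.

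**Figure D3:**
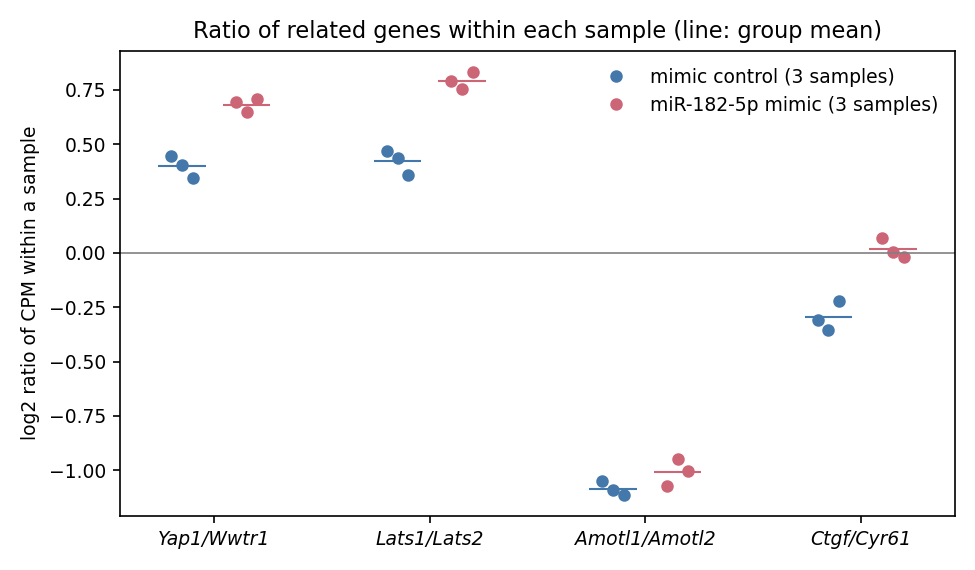
Log2 ratio of the CPM of related genes within each of the 3 mimic control samples (blue) and 3 miR-182-5p mimic samples (red), with a line at each group mean. The ratios of Yap1 to Wwtr1, Lats1 to Lats2 and Ctgf to Cyr61 are separated between the groups, by 0.28, 0.37 and 0.31, and those of Amotl1 to Amotl2 overlap.

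Per kilobase of exon (all annotated exons of a gene joined), the levels in the control ran from Cyr61 at 344 ± 9.02 CPM per kb and Ctgf at 199 ± 13.8 (SD, n = 3) to Ankrd1 at 2.72. Between them lay Amotl2 at 62.2, Wwtr1 at 27.7, Tead1 at 23.3, Yap1 at 18.9, Amotl1 at 18.3, Lats1 at 13.3 and Lats2 at 10.4 CPM per kb. In the control samples, the ranges of Yap1 (from 18.6) and Amotl1 (up to 18.8) overlapped, so these neighbours were not separated. With the mimic, Yap1 stood at 25.7 (25.0 to 26.7) and overlapped Tead1 at 26.6 (26.0 to 27.1), while Amotl1 stayed at 17.9 CPM per kb. The order of the 10 genes by mean was the same in both groups, and no other neighbours overlapped. These ranges leave out the uncertainty of exon length, since the annotation used for counting is not given. The order between genes is therefore approximate.

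The other genes of the pathway were examined as 5 lists of its components and outputs. Of 24 Hippo kinases and scaffolds, 11 rose, 5 fell and 8 did not pass the test, with a median log2 fold change of 0.07. The shares of all genes tested, 23.2% higher and 23.5% lower, stand beside this count and those of the lists below. At a mean of 50 CPM or more, a level that many list genes reached, the shares were 37.4% higher and 27.6% lower. The MST kinases Stk3 and Stk4, which activate LATS, rose by 0.13 and 0.27 on the log2 scale (adjusted p = 0.0262 and 0.000258). Their scaffold Sav1, which holds a miR-182-5p seed match in its 3′ UTR, fell from 93.9 to 72.5 CPM (log2 -0.37, SE 0.034, adjusted p = 7.8e-07). The LATS cofactors MOB1A and MOB1B moved apart, Mobkl1b (Mob1a) rising by 0.23 and Mobkl1a (Mob1b), which also holds a match, changing by -0.29 on the log2 scale (adjusted p = 7.3e-05 and 0.000349). Wwc2, a relative of KIBRA with 3 matches, rose by 0.21 on the log2 scale (adjusted p = 4.0e-05). Nf2, the membrane protein merlin, differed by 0.05 and did not pass (adjusted p = 0.255).

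Among the kinases of the MAP4K family, which can act on LATS in parallel to MST, Map4k5 rose from 56.8 to 71.0 CPM (log2 0.32, SE 0.043, adjusted p = 2.8e-05) and Map4k4, the most highly expressed gene of the list, from 349 to 392 CPM (log2 0.17, adjusted p = 0.000161). The family went both ways, since Map4k3 fell by 0.15 on the log2 scale (adjusted p = 0.00128), while Map4k1 and Map4k2, at log2 differences of -0.53 and -0.14, did not pass (adjusted p = 0.0523 and 0.289). Past 1.5-fold were 2 of the 24 genes, both of low expression, against 7.45% of all genes tested. Wwc1 (KIBRA), an upstream activator, had 33 to 36 reads per control sample and 57 to 67 per mimic sample (log2 0.76, SE 0.17, adjusted p = 0.00239). Dchs1, an atypical cadherin that signals through FAT4, had 57 to 70 reads in the control and 22 to 44 with the mimic (log2 -0.99, SE 0.23, adjusted p = 0.0028). For both, no sample of 1 group reached the range of the other.

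Of 10 LATS inhibitors and members of the STRIPAK phosphatase complex, which opposes MST, 5 rose and the other 5 did not pass. Those that did not pass differed by 0.0087 (Limd1) to 0.14 (Wtip), and the median log2 fold change of the 10 was 0.14. Ajuba (Jub), a LIM protein that binds and restrains LATS and whose 3′ UTR holds a seed match, was the only one past 1.5-fold, from 24.0 ± 0.730 to 36.3 ± 1.53 CPM (log2 0.60, SE 0.052, adjusted p = 5.2e-07). Ajuba lies just above the cutoff, and without control replicate 3 or mimic replicate 2 it was below it. Dlg5, a polarity scaffold and the most highly expressed of the list, rose from 149 to 163 CPM (log2 0.13, adjusted p = 0.00369). Of 12 partners of YAP, TAZ and TEAD, 10 could be tested, and 1 rose, 2 fell and 7 did not pass. Vgll3, a TEAD cofactor, rose from 96.0 to 122 CPM (log2 0.34, SE 0.039, adjusted p = 6.35e-06). Csnk1e, a casein kinase that primes YAP for degradation, fell from 72.4 to 61.6 CPM (log2 -0.23, adjusted p = 0.000234), whereas its relative Csnk1d had 195 and 205 CPM and did not pass (adjusted p = 0.0516). Ptpn14, which binds YAP, was the other gene to fall, by 0.09 on the log2 scale (adjusted p = 0.0407). The Ptpn14 call was lost with DESeq2, with no filter, and without control replicate 1 or 3 or mimic replicate 1 or 2.

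The wider output did not follow Cyr61, Ctgf and Ankrd1 in 1 direction, and among the 10 genes the known target Amotl2 was lower. In a signature of 17 genes taken as YAP and TAZ targets in other cells, without any of the 10 genes above, 8 rose, 5 fell and 4 did not pass, and the median log2 fold change was -0.01. Ptpn14 is counted here again among those that fell. Arhgef17 rose from 173 to 210 CPM (log2 0.28, SE 0.026, adjusted p = 1.1e-06). Ccdc80, a secreted matrix protein and the most highly expressed of the list, rose from 864 to 938 CPM (log2 0.12, adjusted p = 0.00251). The 3 genes past 1.5-fold were all lower. Over all genes tested, 5.48% were past both cutoffs and lower and 1.97% higher, so calls were more often lower there too. Igfbp3, which binds insulin-like growth factors, had 74.3, 72.1 and 73.1 CPM in the control and 28.1, 28.8 and 28.0 CPM with the mimic (log2 -1.37, SE 0.041, adjusted p = 9.1e-12). Its 2 groups were tight and far apart, a larger change than that of any of the 10 genes. Nt5e, the ectonucleotidase CD73 and also a mesenchymal marker, fell from 15.3 to 8.80 CPM (log2 -0.79, SE 0.067, adjusted p = 3.9e-07). Foxf2, a mesenchymal transcription factor, fell from 1.52 to 0.982 CPM (log2 -0.63, SE 0.20, adjusted p = 0.0203), also with a seed match in its 3′ UTR. The Foxf2 call was lost with DESeq2 (adjusted p = 0.109), without control replicate 1 (edgeR adjusted p = 0.0655) and without mimic replicate 1 (edgeR adjusted p = 0.0889).

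Serum response factor (SRF) and its cofactors of the MRTF family respond to actin tension and share many targets with YAP. Of 11 genes of this arm, 9 rose, 1 fell and 1 did not pass, and none reached 1.5-fold (median log2 0.20, equal to that of the 10 genes at this rounding). Srf itself rose by 0.23 and the cofactor Mkl1 by 0.29 on the log2 scale (adjusted p = 0.000337 and 3.5e-05). The myosin light chain Myl9 had 296, 271 and 282 CPM in the control and 370, 341 and 341 CPM with the mimic (log2 0.31, SE 0.039, adjusted p = 1.5e-05). The actin crosslinker Flna, the most abundant of the list, rose from 3191 to 3501 CPM (log2 0.13, adjusted p = 0.00574). Vinculin (Vcl), a focal adhesion protein with a seed match, was lower at 606 against 642 CPM (log2 -0.08, adjusted p = 0.0259). This call was lost with a replicate block (adjusted p = 0.0601) and without control replicate 2 or 3 or mimic replicate 2 or 3 (adjusted p = 0.0711, 0.105, 0.12 and 0.0998). Acta2, the smooth muscle actin, is both an SRF target and a mural cell marker, and rose from 2364 to 2891 CPM, whereas Myh11, the smooth muscle myosin, was at 18.1 and 17.9 CPM.

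Across the 5 lists, 71 genes had an annotated 3′ UTR and 13 of them held the 7-base miR-182-5p match. Of 12 that fell, 4 held it (Sav1, Mobkl1a, Foxf2 and Vcl), as did 3 of 34 that rose (Wwc2, Jub and Asap1) and 6 of 25 that did not pass. These counts are given as a description, beside the 12.5% of all tested genes, and were not adjusted for 3′ UTR length. That length was 1128 bases for Sav1, 8048 for Mobkl1a, 758 for Foxf2 and 1943 for Vcl, against a median of 1201. As given above, the Foxf2 and Vcl calls were lost under some alternatives.

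**Figure D4:**
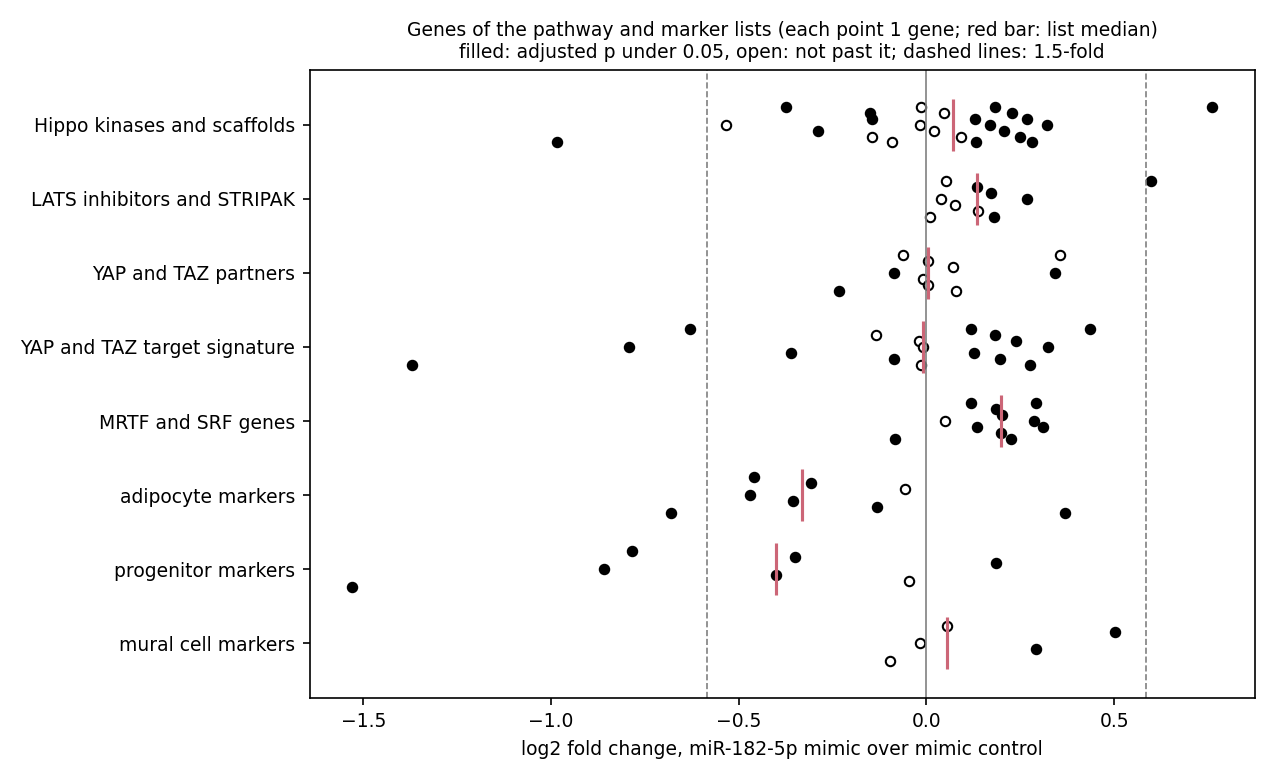
Log2 fold change of each tested gene of 5 pathway lists and 3 marker lists, miR-182-5p mimic over mimic control, 1 point per gene, filled where the adjusted p is under 0.05, with a red bar at the list median and dashed lines at 1.5-fold. The MRTF and SRF genes lie mostly right of 0, with a median of 0.20, the YAP and TAZ target signature spreads to both sides, and the adipocyte and progenitor markers lie mostly to the left, with medians of -0.33 and -0.40.

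Markers of other cells that express pathway genes moved with the mimic as well, and their part in the changes above was not tested. Of 8 adipocyte markers, 6 fell, Fabp4 by 0.68 on the log2 scale (adjusted p = 1.8e-08) and lipoprotein lipase (Lpl), the most highly expressed, from 6276 to 4527 CPM (log2 -0.47, adjusted p = 1.7e-06), and Lep, which encodes leptin, rose from 13.4 to 17.4 CPM (log2 0.37, adjusted p = 0.00276). Of 8 progenitor markers, 7 could be tested, 5 fell and 1 (Thy1) rose, with Pdgfra, the receptor that marks fat progenitors, at 450 ± 4.97 and 248 ± 7.54 CPM (log2 -0.86, SE 0.030, adjusted p = 2.9e-11). The progenitor markers Cd34 and Pi16 fell from 17.7 to 6.14 CPM (log2 -1.53, adjusted p = 1.7e-09) and from 2.37 to 1.38 CPM (log2 -0.78, adjusted p = 0.00464). Thy1 went from 524 to 596 CPM (adjusted p = 0.000347), and Col1a1 did not pass (adjusted p = 0.378). Of 6 mural markers, 2 rose, Cspg4 (NG2) from 50.7 to 71.8 CPM (log2 0.50, adjusted p = 1.5e-05) and Acta2, and the median of the 5 that could be tested was 0.06. The defining pericyte marker Rgs5 was below 0.35 CPM in every sample. Macrophage markers summed to at most 15.6 CPM and endothelial markers to at most 9.27 CPM in any sample. Among them, Tek, an angiopoietin receptor and the most highly expressed endothelial marker, fell from 6.05 to 2.43 CPM (log2 -1.31, adjusted p = 1.5e-06). The other 2 endothelial markers tested did not pass, Kdr at 1.59 and 2.14 CPM (adjusted p = 0.0899) and Cdh5 at 0.554 and 0.503 CPM (adjusted p = 0.73). The lysozyme gene Lyz2 fell from 1.24 to 0.795 CPM (log2 -0.63, adjusted p = 0.0324), a call lost with DESeq2 (adjusted p = 0.154) and without control replicate 1 or 3 or mimic replicate 2 or 3 (edgeR adjusted p from 0.0798 to 0.113), and Csf1r, the most highly expressed macrophage marker, did not pass (adjusted p = 0.432). Among 4 striated muscle markers, where Ankrd1 is best known, Ckm and Myod1 had 0 reads in all samples and only Acta1, which is also an SRF target, could be tested. It rose from 18.4 ± 0.223 to 30.5 ± 2.19 CPM (log2 0.73, SE 0.061, adjusted p = 3.4e-07).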

How the data were processed

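Stranded, poly(A)-selected libraries were sequenced, and for each sample the authors deposited a list of unnormalized read counts by gene symbol. The submitters' processing notes name bcl2fastq, TopHat2, HTSeq and the mouse build mm9, without roles or versions. The lists end with 5 tally lines, kept out of all library sizes. Of all entries listed, 39.1% to 39.8% were not unique, and of the rest 12.7% to 13.0% lay outside genes and 0.652% to 0.667% were ambiguous. Genes with near-identical copies can therefore lose reads. The study gives the cutoffs used here (1.5-fold and adjusted p under 0.05) and a general statistics section (Student's test, analysis of variance) that does not mention the sequencing.

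Counts were tested in R 4.3.3 with edgeR 4.0.16 (TMM, the 2 groups without a block, glmQLFit and glmQLFTest after filterByExpr at its default minimum of 10 counts), two-sided. Of 22609 genes, 13117 were tested. Ratios used log2(CPM + 0.1) and exact permutation. Alternatives were DESeq2 1.42.0, limma 3.58.1 (voom), other size factors, other filters, a replicate block and leaving out each sample. The tests were tried on simulated data with changes larger than those of the 10 genes, so that trial does not cover changes of their size. The members and lists were chosen with earlier results of these data known, and the reference at 50 CPM was added after seeing the data. Besides the 10 genes, the text names from each list those past both cutoffs, the smallest p in each direction and the highest mean CPM. Relatives of the 10, families, seed-match holders and some markers were named after their values were seen. Coordinates and sequences are of GRCm38 (GENCODE M21, RefSeq GRCm38.p6), and 12985 tested genes matched that annotation.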

Additional observations from a re-analysis of the deposited data

How the results depend on the processing

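In the 7 alternatives that kept all samples (other size factors, DESeq2, limma-voom, other filters and the replicate block), each of the 10 genes kept its direction and its side of the adjusted p. Leaving out 1 sample gave 0 to 1 of the 10 lower (Amotl2, log2 -0.125 to -0.0870) and 0 to 1 past 1.5-fold (Ankrd1). The same step gave 1 to 2 kinases and scaffolds past 1.5-fold and lower, 0 to 1 LATS inhibitors past it and higher, 1 to 2 YAP and TAZ partners higher and 1 to 2 lower, 3 to 5 target signature genes lower, and 0 to 1 MRTF and SRF genes lower. Partners higher were 2 with DESeq2 size factors within edgeR and with at least 10 counts in every sample, and partners lower were 1 with DESeq2 and with no filter. With DESeq2, 3 target signature genes were lower. Because both groups carry the replicate numbers 1 to 3, a replicate block was fitted. It left 0 MRTF and SRF genes lower (Vcl lost), and 2836 genes higher and 2880 lower over the whole table, against 3037 and 3087 without it. Same-numbered samples did not deviate together (r = -0.18, -0.0424 and -0.0748 across genes). With 3 samples per group, this cannot settle whether they were prepared together. The cause of these shifts was not tested. With few reads per sample, Wwc1, Dchs1 and Foxf2 had SEs of 0.17 to 0.23 on the log2 scale.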
